A study of Mus musculus with 11 samples.

Results

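The genes of the voltage-gated sodium and calcium channels were followed through 11 poly(A) RNA libraries of SMB21, a medulloblastoma cell line grown as neurospheres. Members were all entries of the count table whose symbol is Scn with a number and a or b, or begins with Cacna, Cacnb or Cacng, and they number 39 of 22619 genes. They comprise 9 sodium channel alpha and 4 beta subunit genes, and 10 calcium channel alpha1, 4 alpha2delta, 4 beta and 8 gamma family genes. The symbol pattern does not take in Scn2a1, the older symbol of a further brain sodium channel alpha subunit, which is given only beside its relatives.

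All libraries come from the same line, whose background is mutant for Ptch1, the Hedgehog receptor (strain Ptch1tm1Mps/J). There were 3 libraries of parental cells without drug and 2 of parental cells given sonidegib, a Smoothened antagonist that blocks Hedgehog signalling, for 24 h. Another 2 came from clones with a mutant Sufu gene, a negative regulator of the pathway, and 4 from clones with a mutant Ofd1 gene, which codes for a protein of the ciliary base. The Sufu clones were R13 and R1, each in 1 library. The Ofd1 clones were R14, in a pair of libraries, and R16 and R25, each in 1 library. All clones came out of a drug resistance screen with a transposon, and it is not stated whether drug was present during their growth. The parental, sonidegib and R14 libraries are named biological replicates without naming separate cultures, so p-values measure only the spread between these libraries, which may in part be technical. The main fits of the Ofd1 group count the libraries of the R14 pair as independent, although they share a clone.

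Voltage-gated sodium channels are built from 1 large pore-forming alpha subunit and small single-pass beta subunits, and they carry the upstroke of the action potential. Voltage-gated calcium channels have a pore-forming alpha1 subunit with an extracellular alpha2delta and a cytoplasmic beta subunit, which bring the pore to the membrane and tune its gating. Most proteins of the gamma family are auxiliary subunits of AMPA-type glutamate receptors, and only some of them belong to muscle calcium channels. Granule neuron progenitors of the cerebellum, the cells from which Hedgehog-driven medulloblastoma arises, acquire much of this set as they mature into neurons.

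Promoter sequence is shown for 4 members that stood apart between Ofd1-mutant and parental libraries, Scn2b and Cacna2d2 on the higher side and Cacng2 and Cacng5 on the lower side. Each is the 250 bases before an annotated start, on the strand of the gene, from RefSeq (GRCm38.p6, which is not the mm9 build of the reads). In the GENCODE annotation the genes Cacna2d2 and Cacng2 begin upstream of these windows, and Scn2b begins inside its window. Those windows thus lie wholly or partly within the gene as annotated there. Capitals mark CpG dinucleotides, the sites of most DNA methylation in mammals.
Scn2b (chr9:45117626-45117875, + strand): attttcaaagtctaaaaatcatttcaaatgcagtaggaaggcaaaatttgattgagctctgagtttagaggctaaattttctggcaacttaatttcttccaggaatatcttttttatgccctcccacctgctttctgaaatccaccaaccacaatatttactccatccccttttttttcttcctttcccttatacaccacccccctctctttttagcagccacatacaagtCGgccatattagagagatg
Cacna2d2 (chr9:107399630-107399879, + strand): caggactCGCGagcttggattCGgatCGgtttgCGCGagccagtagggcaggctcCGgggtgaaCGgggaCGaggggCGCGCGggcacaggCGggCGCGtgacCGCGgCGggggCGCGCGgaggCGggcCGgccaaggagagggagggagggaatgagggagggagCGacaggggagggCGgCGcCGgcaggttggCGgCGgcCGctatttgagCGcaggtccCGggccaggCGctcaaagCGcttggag
Cacng2 (chr15:78119281-78119530, - strand): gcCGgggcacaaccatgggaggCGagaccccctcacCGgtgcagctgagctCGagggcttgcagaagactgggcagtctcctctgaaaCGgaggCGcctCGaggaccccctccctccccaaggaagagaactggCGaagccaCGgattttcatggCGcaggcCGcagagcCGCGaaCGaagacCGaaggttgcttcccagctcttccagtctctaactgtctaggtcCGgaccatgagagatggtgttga
Cacng5 (chr11:107915056-107915305, - strand): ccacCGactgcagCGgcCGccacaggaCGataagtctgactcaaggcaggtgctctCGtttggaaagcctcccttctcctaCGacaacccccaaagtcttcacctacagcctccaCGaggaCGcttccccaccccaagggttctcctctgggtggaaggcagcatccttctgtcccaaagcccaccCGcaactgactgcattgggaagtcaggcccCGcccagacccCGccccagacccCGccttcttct
The 4 windows differ in base composition. The Scn2b window holds 1 CpG at 38.4% G and C, and the Cacna2d2 window 34 CpG at 74.4%. Cacng2 has 16 CpG and Cacng5 12, both at 62% G and C, against a median of 6 CpG and 52.4% over 32851 promoter windows of the same length. Cacng5 has another annotated start, not printed, whose window holds 2 CpG at 56.8% G and C. Windows were found for 29 of the 39 members, 39 windows in all. The Gli consensus GACCACCCA, searched on both strands, was present in 1 window each of Cacnb4 and Scn4a and in 0.225% of all windows, and in none of the 4 windows shown. These matches describe letters in the windows and not binding.

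Levels are CPM, counts relative to the library size after scaling by the TMM method. Of the 39 genes, 29 reached 0.5 CPM in at least 2 of the 11 libraries, which is 74.4%, against 61.0% of the whole table. By library the number at 0.5 CPM ran from 22 in Sufu clone R1 to 28 in Sufu clone R13, and 20 genes reached it in every library. By class, 5 of 9 sodium alpha, 3 of 4 sodium beta, 8 of 10 calcium alpha1, 3 of 4 alpha2delta, 4 of 4 calcium beta and 6 of 8 gamma family genes reached it. Of the 10 others, 6 reached it in no library. These were Scn7a, Scn9a, Scn11a, Scn4b, Cacna1f, the retinal L-type pore, and Cacng1, with highest levels of 0.236, 0.372, 0.321, 0.160, 0.10 and 0.0667 CPM. The remaining 4 reached it in 1 library each, Cacna1e at 0.531 CPM in parental replicate 2, Cacna2d4 at 0.715 CPM in sonidegib replicate 2, Cacng3 at 1.08 CPM in R13 and Scn10a at 1.30 CPM in R1. The heat map of levels shows 27 of the 29 genes.

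**Figure D1:**
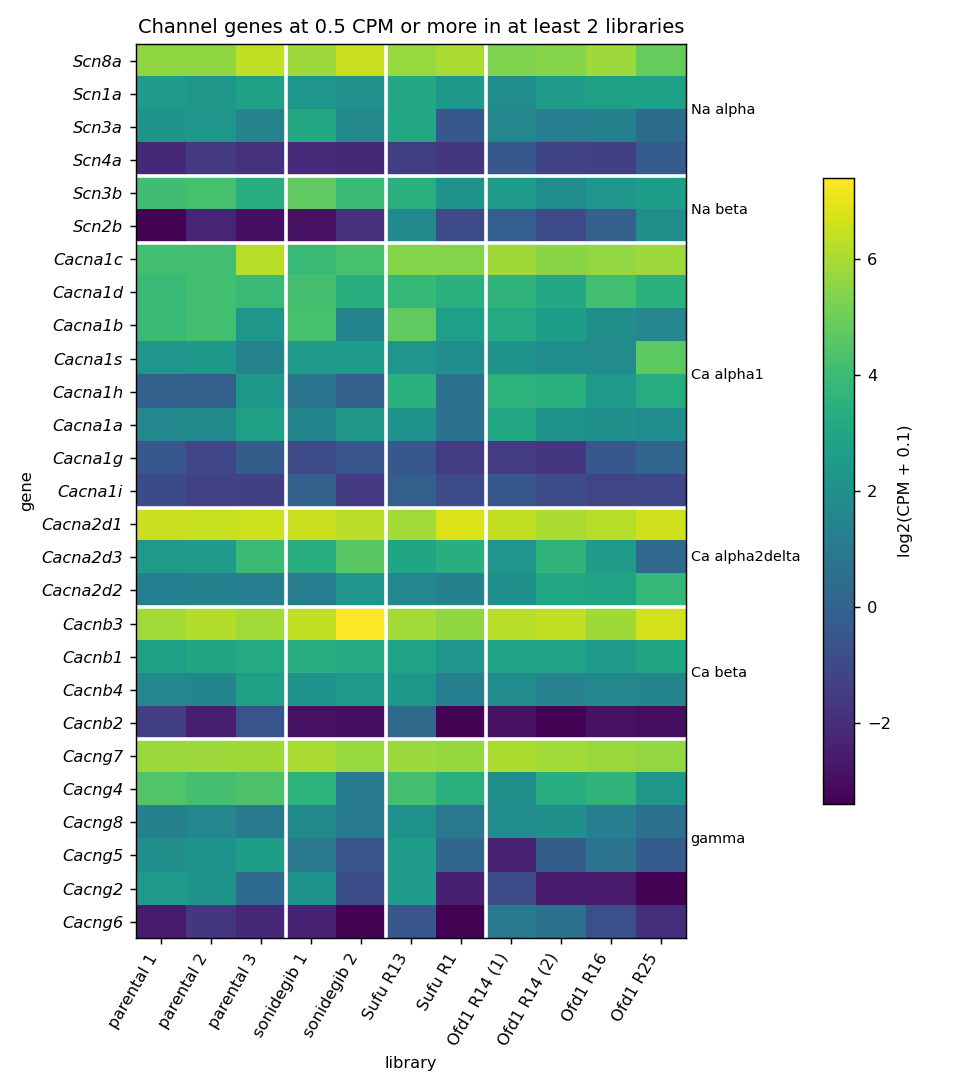
Levels of 27 channel genes that reached 0.5 CPM in at least 2 libraries, as log2(CPM + 0.1) by colour, with genes in rows grouped by subunit class and the 11 libraries in columns grouped by condition. Scn8a, Cacna2d1, Cacnb3 and Cacng7 are bright in every column, while Cacna1s is bright in R25, at 25.5 CPM.

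The libraries held 24308451 to 38241595 counts each. Ofd1 transcripts stood at 9.27 to 23.4 CPM in the Ofd1 clones against 35.4 to 42.9 CPM in parental libraries, and Sufu at 2.76 and 17.7 CPM in clones R13 and R1 against 27.7 to 29.6 CPM. Sufu was also at 12.0 to 19.2 CPM in the Ofd1 clones and at 24.8 and 5.60 CPM in the sonidegib libraries, so its level does not set R1 apart from the Ofd1 clones. Sonidegib replicate 2 had low signal from long transcripts. Across 10874 genes its levels, relative to the other libraries, fell with length at a rank correlation of -0.603, where the other 10 libraries had -0.103 to 0.234. Channel transcripts are long, the median member lying at percentile 90.0 of transcript length in the table, so values of that library are given apart below. Of the lists of markers, all 7 microglial genes were under 0.5 CPM in every library. The 15 neuronal differentiation markers summed to 801 to 1322 CPM in parental, 1275 to 2059 in sonidegib, 904 to 1233 in Sufu and 870 to 1556 in Ofd1 libraries, with no common direction in the Ofd1 clones. The median log2 difference of those clones from parental cells was 0.96 over the 11 markers tested. Syt1 was called higher there (log2 difference 1.98, adjusted p = 0.0464 by edgeR). Neurod1, Map2, Nefl, Gap43 and Nefm were also higher, each by 0.96 or more, and did not pass. Snap25, Rbfox3 and Tubb3 differed by -1.67, -1.07 and -0.87, and Cntn2 and Dcx by -0.496 and -0.287. None of these lower markers passed. The 7 granule progenitor markers summed to 1992 to 2256 CPM in parental and 3438 to 3837 CPM in sonidegib libraries, the 6 astrocyte markers to 242 to 337 and 489 to 504 CPM, the 8 oligodendrocyte markers to 157 to 377 and 60.9 to 90.1 CPM, and the 6 cell cycle genes to 2624 to 2940 and 881 to 1076 CPM. In clones these sums were 1691 to 2349, 160 to 269, 202 to 486 and 2282 to 3034 CPM. Fibroblast and pericyte markers summed to at most 2.28 CPM and endothelial ones to at most 13.6 CPM. Of 4 Hedgehog targets, Gli1 and Hhip were called lower with sonidegib. In such bulk samples a smaller share of cells of a type and less RNA per cell cannot be told apart, and the part of these shifts in the results below was not tested.

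No member passed the test in any of the 4 comparisons. The test was the edgeR quasi-likelihood test over all genes, with Benjamini-Hochberg adjusted p under 0.05. It called 0 of 27 members tested after sonidegib, where it called 0.0652% of all genes, and 0 of 30 in Sufu clones, with 0.0% of all genes. It called 0 of 29 in Ofd1 clones against parental cells (0.363% of all genes) and 0 of 29 in Ofd1 against Sufu clones (0.00713%). All genes called higher came to 0.00724% after sonidegib and 0.181% in Ofd1 clones, and those called lower to 0.0579% and 0.181%. At an unadjusted p under 0.05 there were 3, 4, 12 and 5 members, where 1939, 1341, 1899 and 1253 of all genes had such a p. The DESeq2 test called 2 of 27, 2 of 27, 9 of 29 and 1 of 29 members with an adjusted p in the same order, where it called 5.15%, 2.40%, 5.46% and 1.90% of all genes. The 3 comparisons with parental cells share the same control libraries, and a member that entered a test only through the group where it was high could not but differ, so these counts describe the members and are no evidence of their own.

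Among sodium channel alpha subunits, Scn8a, which codes for the main channel of the axon initial segment in mature neurons, was the most abundant in parental cells. It stood at 48.0, 48.4 and 81.3 CPM in parental replicates 1 to 3 and at 56.1 and 93.3 CPM in the sonidegib libraries. It was at 53.5 CPM in R13 and 64.5 in R1, and at 40.1 and 43.8 CPM in the R14 pair, 56.6 in R16 and 28.5 in R25. The groups overlapped in all 4 comparisons. Log2 differences from parental cells were 0.33 ± 0.33 (SE), 0.01 ± 0.27 and -0.48 ± 0.26 for sonidegib, Sufu and Ofd1 libraries, with adjusted p of 0.638, 0.994 and 0.469 by edgeR.

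**Figure D2:**
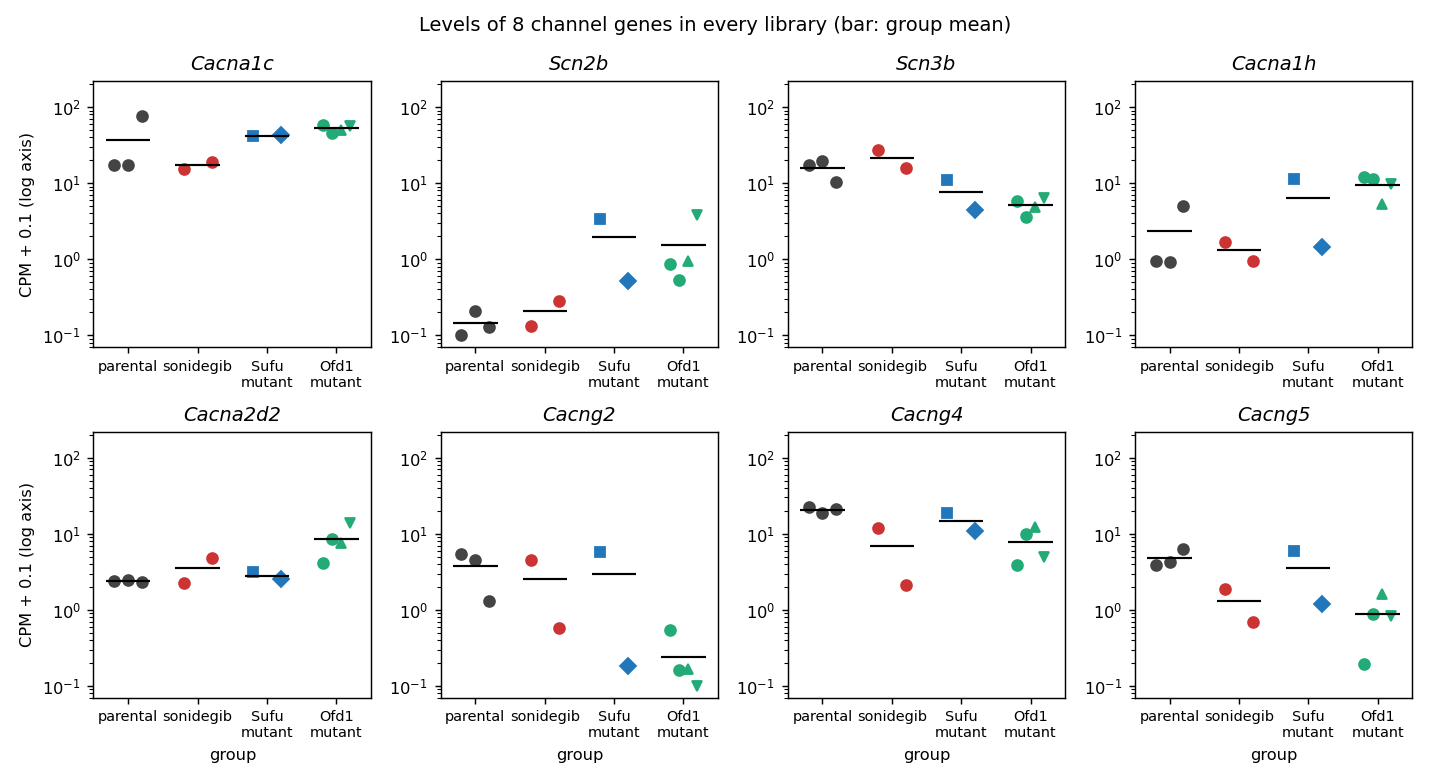
Levels of 8 members in each library, as CPM + 0.1 on a log axis, by group, with bars at the group means. In the Sufu group the square is R13 and the diamond R1. In the Ofd1 group circles are the R14 pair, the upward triangle R16 and the downward triangle R25. The Ofd1 clones lie below all parental libraries for Scn3b, Cacng2, Cacng4 and Cacng5, and above them for Scn2b, Cacna1h and Cacna2d2.

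The other alpha subunits were lower in level. Scn1a, a channel of inhibitory neurons and axons, ran from 3.48 to 8.70 CPM over the 11 libraries, and Scn3a, a channel of the embryonic brain, from 0.630 CPM in R1 to 8.64 CPM in sonidegib replicate 1. Scn4a, the skeletal muscle channel, ran from 0.119 to 0.727 CPM. Scn2a1 was at 7.99 ± 0.920 CPM (SD, n = 3) in parental and 11.1 ± 2.14 CPM (n = 4) in Ofd1 libraries, which differ by 0.48 on the log2 scale (adjusted p = 0.361 by edgeR). Scn10a, a channel of sensory neurons, was at 0 to 0.118 CPM in parental and sonidegib libraries. It reached 0.401 CPM in R13, 1.30 in R1 and 0.155 to 0.325 CPM in Ofd1 libraries. Its log2 difference between Sufu and parental libraries was 3.58 ± 0.82 (adjusted p = 0.329 by edgeR). That value rests on 1, 2 and 4 counts in parental replicates 1 to 3 and on 10 and 31 counts in R13 and R1. Scn10a did not enter the tests of sonidegib or Ofd1 libraries against parental ones.

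The sodium channel beta subunits, cell adhesion proteins that modulate the pore, differed in opposite directions between Ofd1 and parental libraries for Scn3b and Scn2b, and neither passed the test. Scn3b was at 17.0, 19.2 and 10.2 CPM in parental and 27.4 and 15.6 CPM in sonidegib libraries. It was at 10.7 CPM in R13, 4.33 in R1, 5.78 and 3.50 in the R14 pair, 4.68 in R16 and 6.23 in R25, so every Ofd1 library lay below every parental one. The Ofd1 difference was -1.60 ± 0.28 on the log2 scale, with an adjusted p of 0.0601 that was the smallest of any member in any comparison. It passed without parental replicate 3 (-1.84, adjusted p = 0.0204), without clone R25 (-1.73, 0.0401) and with the length trend removed (-1.64, 0.0481). Those fits called 2.36%, 1.66% and 0.646% of all genes, and they too count the libraries of the R14 pair as independent. The Sufu difference was -1.02 ± 0.47 (adjusted p = 0.558), and it was -0.51 without R1.

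Scn2b was at or near background in parental cells. It had 0, 4 and 1 counts in parental replicates 1 to 3, at 0, 0.106 and 0.0295 CPM, where a count of 0 allows up to 0.0949 CPM in replicate 1. It was at 0.0334 and 0.179 CPM in the sonidegib libraries. It stood at 3.25 CPM in R13, 0.420 in R1, 0.776 and 0.433 in the R14 pair, 0.845 in R16 and 3.68 in R25, above all 5 parental and sonidegib libraries in every clone. Log2 differences from parental cells of 5.18 ± 1.22 in Sufu and 4.84 ± 1.12 in Ofd1 clones rest on these few parental counts and had adjusted p of 0.336 and 0.115. Scn4b stood at 0 in 9 libraries.

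Among calcium channel pores, Cacna1c had the highest mean over the 11 libraries, 39.8 CPM or 3.02 CPM per kb of transcript. This main L-type channel of brain and heart was at 17.2, 17.4 and 76.2 CPM in parental replicates 1 to 3, so that replicate 3 lay above every other library of the series. It was at 15.0 and 18.9 CPM with sonidegib, 41.9 and 42.2 CPM in R13 and R1, and 57.7, 45.1, 49.6 and 56.3 CPM in the Ofd1 libraries. The clones lay between the parental libraries. The log2 difference of the Ofd1 clones was 0.51 ± 0.50 (adjusted p = 0.716), 1.59 without parental replicate 3 (0.00681) and -0.54 against that library alone, with no test. The Sufu difference was 0.20 ± 0.67 (adjusted p = 0.942), and it was 1.30 without parental replicate 3 and -0.85 against that library alone.

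Cacna1d, an L-type channel that opens at low voltages, varied least among the pores, with 14.5, 17.4 and 14.5 CPM in parental libraries. It was at 18.6 and 10.3 CPM with sonidegib, 14.2 and 10.9 CPM in R13 and R1, and 12.2, 8.70, 17.4 and 11.2 CPM in the Ofd1 libraries. Its log2 differences from parental cells were -0.10 ± 0.34, -0.29 ± 0.23 and -0.32 ± 0.23, with adjusted p of 0.896, 0.707 and 0.609, and both Sufu clones lay just below the parental libraries. Cacna1s, the skeletal muscle L-type channel, was at 2.57 to 5.60 CPM in 10 libraries and at 25.5 CPM in R25. The skeletal muscle markers Myod1, Myog, Ckm, Tnnt3 and Des were under 0.5 CPM in every library, while Acta1 was at 2.34 CPM in R25 and all 7 muscle markers summed to 3.15 to 4.38 CPM in Ofd1 and 2.45 to 10.5 CPM in parental libraries.

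Of the presynaptic pores, Cacna1b, the N-type channel of nerve terminals, spread widely inside groups. It was at 14.4, 17.2 and 4.93 CPM in parental libraries, 18.9 and 2.68 CPM with sonidegib and 26.8 and 6.43 CPM in R13 and R1. In the Ofd1 libraries it was at 9.01, 6.25, 3.77 and 2.93 CPM. These groups overlap, and the Ofd1 difference of -1.15 ± 0.49 (adjusted p = 0.352) was 0.16 against parental replicate 3 alone. Cacna1a, the P/Q-type channel, ran from 1.43 CPM in R1 to 8.04 CPM in R14 replicate 1.

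Of the T-type pores, which open near the resting potential, Cacna1h stood out. It was at 0.854, 0.823 and 4.96 CPM in parental, and 1.60 and 0.834 CPM in sonidegib libraries. It was at 11.3 CPM in R13 and 1.34 in R1, and at 11.8 and 11.3 CPM in the R14 pair, 5.17 in R16 and 9.68 in R25. All Ofd1 libraries lay above all parental ones, R16 by a small step over parental replicate 3. The Ofd1 difference was 2.11 ± 0.67 (adjusted p = 0.217), 3.49 without parental replicate 3 (adjusted p = 0.0152) and 0.94 against that library alone. The Sufu difference of 1.54 ± 1.10 (adjusted p = 0.683) was -0.71 without R13. Cacna1g ran from 0.217 to 0.986 CPM and Cacna1i from 0.238 to 0.834 CPM.

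Of the alpha2delta subunits, Cacna2d1, a gabapentin-binding subunit, had the highest mean of all members over the 11 libraries, 85.9 CPM, though not the highest level in every group. It stood at 91.5, 90.1 and 95.8 CPM in parental, 91.9 and 78.5 CPM in sonidegib libraries, 60.5 CPM in R13, 113 CPM in R1 and 85.3, 64.9, 74.6 and 98.7 CPM in the Ofd1 libraries. Its log2 differences from parental cells lay between -0.18 and -0.08, with adjusted p from 0.651 to 0.943, and the 2 Sufu clones were its lowest and highest libraries.

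Cacna2d2, the alpha2delta subunit prominent in cerebellar Purkinje cells, was steady at 2.28, 2.34 and 2.24 CPM in parental libraries. It was at 2.17 and 4.65 CPM with sonidegib and 3.01 and 2.44 CPM in R13 and R1. In the Ofd1 libraries it was at 4.01 and 8.42 CPM in the R14 pair, 7.38 in R16 and 13.8 in R25, above all parental and Sufu libraries. The log2 difference was 1.89 ± 0.40 from parental cells (adjusted p = 0.0950) and 1.61 ± 0.51 from Sufu clones (adjusted p = 0.457). Cacna2d3 ran the other way in R25, where it was at 1.12 CPM, against 4.53 to 25.1 CPM in the other 10 libraries.

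The calcium channel beta subunits, which bind the pore inside the cell, were led by Cacnb3. It stood at 60.4, 72.2 and 59.9 CPM in parental and at 82.9 and 170 CPM in sonidegib libraries. It was at 60.3 and 48.7 CPM in R13 and R1, and at 76.6, 83.1, 57.5 and 104 CPM in the Ofd1 libraries. Both sonidegib libraries lay above the parental ones, at a log2 difference of 0.96 ± 0.31 (adjusted p = 0.273). The higher value came from the library with low signal from long transcripts. The difference was 0.35 without that library, 1.35 without the other one (adjusted p = 0.0116) and 0.90 with the length trend removed (adjusted p = 0.207). Cacnb1 ran from 4.58 to 10.2 CPM and Cacnb4 from 2.31 to 6.50 CPM. Cacnb2 was at 1.16 CPM in R13, 0 in R1, 0.0796 to 0.561 CPM in parental and at most 0.0334 CPM in the sonidegib and Ofd1 libraries.

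In the gamma family, Cacng7, a broad auxiliary subunit of AMPA receptors, was the steadiest member with at least 10 CPM. It stood at 54.5, 56.1 and 58.8 CPM in parental, 65.7 and 53.0 in sonidegib, 54.5 and 51.1 in Sufu and 66.6, 60.5, 55.0 and 49.9 CPM in Ofd1 libraries. The highest library was 1.34 times the lowest. Its log2 differences from parental cells were 0.07 ± 0.21, -0.08 ± 0.14 and 0.05 ± 0.12, and the Sufu clones lay below the parental libraries by a small step. Its neighbours on chromosome 7 were scarcer, with Cacng8 at 1.35 to 4.21 CPM and Cacng6 at 0 to 1.83 CPM. Cacng6 was at 1.83 and 1.45 CPM in the R14 pair, 0.488 in R16 and 0.156 in R25, against 0.0633 to 0.212 CPM in parental libraries.

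Cacng4 and Cacng5, which lie next to each other on chromosome 11 in RefSeq, were both lower in the drug and Ofd1 groups. Cacng4 was at 22.1, 18.6 and 20.9 CPM in parental, 11.7 and 2.00 CPM in sonidegib and 18.4 and 10.8 CPM in Sufu libraries. It was at 3.79, 9.97, 12.2 and 4.88 CPM in the Ofd1 libraries. Cacng5 was at 3.73, 4.14 and 6.14 CPM in parental, 1.80 and 0.596 CPM in sonidegib, and 5.85 and 1.09 CPM in Sufu libraries. It was at 0.0932, 0.774, 1.53 and 0.727 CPM in the Ofd1 libraries. For both genes every sonidegib and every Ofd1 library lay below every parental one. Both Sufu clones also lay below every parental library for Cacng4, R13 by a small step. For Cacng5 R13 lay among the parental libraries and R1 below them.

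The log2 difference of Cacng4 was -1.58 ± 0.68 after sonidegib (adjusted p = 0.362) and -1.41 ± 0.38 in Ofd1 clones (adjusted p = 0.155). That of Cacng5 was -1.96 ± 0.62 (adjusted p = 0.263) and -2.57 ± 0.66 (adjusted p = 0.143). Without sonidegib replicate 1 the drug differences passed, at -3.41 (adjusted p = 0.00859) and -3.02 (0.0251). That fit rests on replicate 2 alone, the library with low signal from long transcripts, and it called 23.0% of all genes. Without sonidegib replicate 2 they were -0.83 and -1.39, with adjusted p of 0.376 and 0.474. In Sufu clones they were -0.48 and -0.41, with adjusted p of 0.627 and 0.873. Of the protein-coding genes at the ends of this row, Helz differed by -0.78 and -0.04 and Prkca by -0.18 and -0.71 after sonidegib and in Ofd1 clones, with adjusted p from 0.233 to 0.955. These flanking genes were looked up after the values of the pair were seen.

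Cacng2, which codes for stargazin, the AMPA receptor subunit lost in the stargazer mouse, was at 5.29, 4.43 and 1.21 CPM in parental libraries. It was at 4.37 and 0.477 CPM with sonidegib and 5.65 CPM in R13, but 0.0840 CPM in R1. In the Ofd1 libraries it was at 0.435 and 0.0619 CPM in the R14 pair, 0.0650 in R16 and 0 in R25, where a count of 0 allows up to 0.0779 CPM. The Ofd1 difference was -4.68 ± 0.97 (adjusted p = 0.0878) and passed without parental replicate 3 (-5.11, adjusted p = 0.0420). Against parental replicate 3 alone it was -3.11, with no test. The Sufu difference of -0.32 ± 1.30 was -5.37 without R13 and 0.65 without R1, so the 2 Sufu clones differed from each other.

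**Figure D3:**
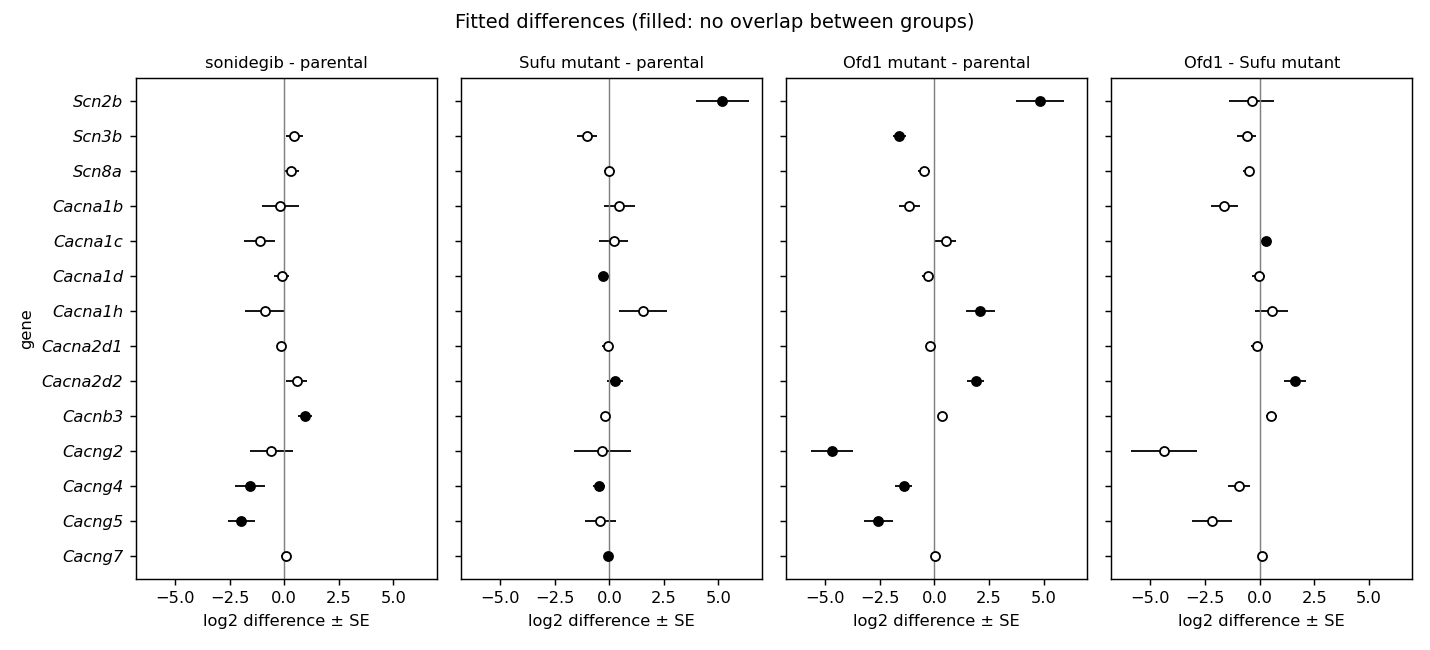
Fitted log2 differences with standard errors for 14 members given by library, in 4 comparisons, with filled points where the groups did not overlap. In Ofd1 clones against parental libraries Scn2b, Cacna1h and Cacna2d2 lie to the right and Scn3b, Cacng2, Cacng4 and Cacng5 to the left, all without overlap. Scn2b has no point in the sonidegib panel because it was not tested there.

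Counted over the members tested, those that lay wholly above or wholly below parental libraries were 3 and 5 of 27 after sonidegib, where 18.0% and 16.3% of all genes did so. In Sufu clones they were 6 and 4 of 30 (11.9% and 14.8% of all genes), and in Ofd1 clones 5 and 5 of 29 (6.17% and 7.25%, 13.4% in all). Ofd1 libraries lay above Sufu libraries for 3 and below for 2 of 29 members (9.85% and 8.34%, 18.2% in all). In either direction it was 34.3% of all genes after sonidegib and 26.7% in Sufu clones. The median log2 difference of the members was -0.10, 0.02, 0.01 and -0.16 in the 4 comparisons, against 0.04, 0.00, 0.01 and 0.00 over all genes, so the set had no common direction.

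The size of the differences was set beside that of other genes of like level. Among the 15 members with a mean of at least 5 CPM, 6 had a log2 difference of 1 or more in size between Ofd1 and parental libraries, and 2.88% of the 10941 genes at that level did. Among them were Cacna1h and Cacna1s on the higher and Scn3b, Cacna1b and Cacng4 on the lower side. Cacna1s was at 25.5 CPM in R25 and at 3.38 to 4.32 CPM in the other Ofd1 libraries. Against parental replicate 3 alone the differences of Cacna1h and Cacna1b were 0.94 and 0.16. Among 14 scarcer members 6 did, against 21.99% of genes. They include Scn2b, Cacng6 and Scn4a, with at most 4, 8 and 9 counts in a parental library, and Cacng2, with at most 14 in an Ofd1 library. These entered the test only through the group where they were high. A large difference was thus close to fixed in advance, and the share among scarcer members is no evidence of its own. In Sufu clones 3 of the 15 did, against 3.35% of genes, and after sonidegib 3 of the 15, against 9.18%. Cacna1h and Scn3b were among the Sufu members, and their differences were -0.71 without R13 and -0.51 without R1. Members also differed more than the 10941 genes within groups, by the median size of the log2 difference between libraries. Over 29 members, scarcer ones included, it was 0.378 in the R14 pair, against 0.149 for the genes. It was 0.753 against 0.261 between R13 and R1, and 0.412 against 0.258 between parental replicates 1 and 3. Both values were smallest between parental replicates 1 and 2. Whether the Ofd1 share exceeds this spread was not tested. No test was made of these shares, and the members were chosen with earlier results of these data known.

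Members lie in rows along the genome. By RefSeq gene order, 17 of the 39 lie in 7 rows with another channel gene within 3 places along the order of protein-coding genes, counting Scn2a1. Neighbours in a row could differ widely in level. Cacna1c and Cacna2d4, with Dcp1b between them, were at 36.9 and 0.135 CPM on average in parental libraries.

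Of 56 other genes of channel anchoring, regulation and calcium release, 47 or 48 were tested in each comparison and 0 were called in either direction in any of the 4, by edgeR. Their median log2 difference was -0.20 after sonidegib, 0.24 in Sufu and 0.13 in Ofd1 clones, and 0.01 between the clone classes. Ank3, whose ankyrin holds sodium channels at the axon initial segment, differed by 1.59 in Sufu (adjusted p = 0.276) and 1.57 in Ofd1 clones (adjusted p = 0.102). Fgf13, an intracellular sodium channel partner, differed by 1.26 and 2.36 (adjusted p = 0.447 and 0.0759). Others were lower in Ofd1 clones, with Snap25, Unc80 and Unc79 at -1.67, -1.54 and -1.47 (adjusted p = 0.0950, 0.138 and 0.377 by edgeR). In Sufu clones these were at 0.92, 2.02 and 0.75. Fam155a differed by -2.29 after sonidegib (adjusted p = 0.0847 by edgeR). All of these genes were picked from that list after its values were seen. Rest, the repressor of neuronal channel genes, was at 29.9 to 53.9 CPM in 10 libraries and at 1.37 CPM in sonidegib replicate 2.

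The patterns of the 3 members with the highest mean CPM over the libraries were set beside those of 10378 genes averaging 5 CPM or more. These are descriptions over 11 libraries that share groups, clones and depth. Cacna2d1 was most like Suv420h1 (Spearman's rho 0.964, Pearson's r 0.894), then Snx33 and Kansl3, both at a rho of 0.909. Cacnb3 was most like Pvrl2 (0.955 and 0.765), then Spsb2 and Clk3, both at 0.927. Cacng7 was most like Zfp687 (0.909 and 0.799), then Vangl2 at 0.891 and Fech at 0.864.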

How the data were processed

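RNA of 11 SMB21 libraries was read from 1 end at 75 bp after stranded poly(A) library preparation from 500 ng of RNA, per the labels. The authors deposited raw counts by gene symbol as a single table. STAR, DESeq2 and the mm9 build are listed in the submitters' processing notes. The counting tool, annotation and strand setting were not found in those notes or the labels, so reads from antisense partners cannot be told apart. Of 22620 entries, 1 without a gene name (0.0131% to 0.0192% of each library) was left out. Depth was 24308451 to 38241595 counts, and limits for a count of 0 (3 counts per library) cover counting error only.

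Each pair of groups was fitted with edgeR 4.0.16 (quasi-likelihood, robust, TMM factors, genes kept by filterByExpr) in R 4.3.3, two-sided, at a Benjamini-Hochberg adjusted p under 0.05 over all genes tested, and errors of log2 differences were taken from the F statistic. Alternatives used DESeq2 1.42.0, other filters and scalings, the fit of all libraries, removal of a spline of level on transcript length, single libraries left out, the R14 pair summed and the replicate number as a block. The procedure was tested on simulated data. Transcript length was the longest coding transcript in GENCODE M21 (GRCm38), matched for 98.6% of genes and all 39 members. As that is not the build of the reads, only the RefSeq promoter windows carry positions.

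Members called in a comparison, with a mean of at least 10 CPM, or with at least 1 CPM in a group, no overlap and a log2 difference of 1 or more are given by library; 15 met this rule. Other members are given by range or highest level, and those named in lists of anchoring and marker genes as stated. The members and lists were chosen with earlier results of these data known. Values of 2 members are not reported here.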

Additional observations from a re-analysis of the deposited data

Results flagged for a closer look

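In the 4 Ofd1-mutant libraries, 21 members with a mean of at least 1 CPM were checked for a single library far from the other 3, and 3 were found. Chance flags about 1 in 20 groups of independent, normally spread values, and as clone R14 gives 2 of these 4 libraries that rate need not hold here. Cacna1s was at 25.5 CPM in clone R25, against 3.38 to 4.32 CPM in the other Ofd1 libraries. Scn2b was at 3.68 CPM in R25, against 0.433 to 0.845 CPM in the others. Cacna1a was at 8.04 CPM in replicate 1 of clone R14, against 4.24 CPM in replicate 2 of the same clone and 3.56 and 4.00 CPM in R25 and R16.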

How the results depend on the processing

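Of the 39 genes, 20 to 33 reached 0.5 CPM under the other readings tried. The number of members called was 0 in each comparison and changed with the tool. DESeq2 called 2 after sonidegib (Cacng5 among them), 2 in Sufu clones (Scn2b among them), 9 in Ofd1 clones (among them Scn2b, Scn3b, Cacna1h, Cacna2d2, Cacng2, Cacng4, Cacng5 and Cacng6) and 1 in Ofd1 against Sufu clones, and over all genes 711, 326, 770 and 267, where edgeR called 9, 0, 50 and 1. Without a filter there was 1 of 38 members after sonidegib and 1 in Ofd1 clones (Scn3b). Of all genes there were 109 of 17909 after sonidegib, and 3, 84 and 2 in the other comparisons. With all 11 libraries in 1 fit there was 1 of 32 members after sonidegib, and 316 of 14306 genes after sonidegib and 9 in Ofd1 clones. With the length trend removed there was 1 of 29 members in Ofd1 clones (Scn3b). Of all genes there were 69 of 13809, 2 of 13854 and 89 of 13779 in the comparisons with parental cells. With the R14 pair summed, 1 gene was called in Ofd1 against parental and 0 against Sufu libraries. Leaving out 1 library gave 0 to 4 members after sonidegib, 0 to 5 in Ofd1 clones and 0 in the other comparisons, and 0 to 3263, 0 to 11, 0 to 329 and 0 to 11 of all genes. The highest values came without sonidegib replicate 1, without parental replicate 3 for both clone classes, and without R13. Without parental replicate 3, the Ofd1 fit called 5 of 29 members and 2.36% of all genes. A lone library left in a group is there assumed to vary like the others. The cause of these changes was not tested.

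With the replicate number as a block, 1 of 27 members and 97 of 13809 genes were called after sonidegib. In Ofd1 clones 7 of 29 members (among them Scn3b, Cacna1c, Cacna1h, Cacng2, Cacng5, Cacng6) and 1603 of 13779 genes were called with this block. That fit leaves parental replicate 3 and, for the Ofd1 clones, R16 and R25 out of the difference. Deviations of same-numbered libraries correlated at 0.25 and -0.33 for sonidegib and 0.11 and -0.19 for R14, and the libraries share only a number. Of the 15 members that met the rule for values by library, the sign of the log2 difference was the same under all alternatives for 5 of 14 after sonidegib, 8 of 15 in Sufu, 12 of 15 in Ofd1 clones and 9 of 15 between the clones.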
